A study of Mus musculus with 2 samples.

Results

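Among the accessible sites listed only for PDGFRα+ adipose progenitors, those in exons are described here and set against the exonic sites listed only for CD137+ progenitors. The members are the rows of the PDGFRα list whose deposited place class is exon, which gave 730 peaks of 8002 in that list and of 22485 in the series. The CD137 list holds 1038 exonic peaks among its 14483. Accessibility was measured by ATAC-seq, in which a transposase cuts open chromatin and adds sequencing adapters to it. Per the labels, PDGFRα+ and CD137+ adipose progenitors of C57BL/6 mice were taken from SAT or VAT with magnetic sorting (MACS). They were grown, differentiated with an adipogenesis cocktail and then exposed to 1 µM dexamethasone, a synthetic glucocorticoid. Both groups received the drug, so nothing below measures its effect, and which depot gave which cells is not stated. Age and sex are not stated, the cells come from a surface marker selection and not from a clone, and each group is 1 library without a replicate. The labels describe the extraction as one from embryonic cells, at odds with the stated tissue.

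PDGFRα is a receptor tyrosine kinase of stromal cells, including the progenitors that form new fat cells, and CD137, the product of Tnfrsf9, is a marker used for progenitors of beige fat cells. Exons are spliced into the mature transcript, and most open chromatin lies in promoters, introns and intergenic enhancers. An exonic peak can mark an alternative promoter inside a gene, an enhancer that overlaps coding sequence, or an open stretch that extends from a nearby intron, because a peak is usually wider than an exon. The deposited lists do not say which exon a peak touches and hold no height, score or read number, so the depth of both libraries is unknown. Each list holds only the sites not shared, so where no peak is listed the chromatin may be open in each population or closed in each.

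Several PDGFRα exonic peaks covered a start site inside the gene, and the most direct link to the study's labels was the one at Tnfrsf9. The windows printed here are those of the host gene that lie whole under such a peak, for hosts on the gene lists used below and for the widest such peak, at Pmp22. Of the 3 Pmp22 windows under that peak, the one whose start is closest to the peak's centre is shown. They run 5′ to 3′ from 250 bases before to 50 after a RefSeq start (GRCm38.p6, which is mm10). Capitals mark matches to motifs searched on both strands.
Tnfrsf9, chr4:150927749-150928048, plus strand: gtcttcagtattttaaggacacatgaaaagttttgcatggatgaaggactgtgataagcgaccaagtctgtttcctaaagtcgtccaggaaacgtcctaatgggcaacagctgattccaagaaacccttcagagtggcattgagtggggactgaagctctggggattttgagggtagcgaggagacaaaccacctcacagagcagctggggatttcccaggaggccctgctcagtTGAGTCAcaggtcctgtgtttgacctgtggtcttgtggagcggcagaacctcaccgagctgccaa
Hoxc4, chr15:103034145-103034444, plus strand: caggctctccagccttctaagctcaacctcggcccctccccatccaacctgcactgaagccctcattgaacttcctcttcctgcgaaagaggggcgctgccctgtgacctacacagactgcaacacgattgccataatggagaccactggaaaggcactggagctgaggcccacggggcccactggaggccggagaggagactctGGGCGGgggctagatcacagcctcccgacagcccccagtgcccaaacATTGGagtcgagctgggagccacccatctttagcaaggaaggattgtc
Wnt5b, chr6:119449337-119449636, minus strand: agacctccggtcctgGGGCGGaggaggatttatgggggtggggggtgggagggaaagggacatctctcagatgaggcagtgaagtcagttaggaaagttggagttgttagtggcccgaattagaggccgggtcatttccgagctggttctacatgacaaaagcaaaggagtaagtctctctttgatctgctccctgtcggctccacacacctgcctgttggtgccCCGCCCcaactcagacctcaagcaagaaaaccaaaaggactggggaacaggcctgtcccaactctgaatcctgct
Adam19, chr11:46127654-46127953, plus strand: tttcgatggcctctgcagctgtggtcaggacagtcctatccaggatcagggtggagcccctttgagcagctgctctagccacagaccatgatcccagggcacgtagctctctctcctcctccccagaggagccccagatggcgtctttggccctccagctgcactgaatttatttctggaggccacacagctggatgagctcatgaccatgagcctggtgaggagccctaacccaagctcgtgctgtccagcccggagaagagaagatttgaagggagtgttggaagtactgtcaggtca
Pmp22, chr11:63131207-63131506, plus strand: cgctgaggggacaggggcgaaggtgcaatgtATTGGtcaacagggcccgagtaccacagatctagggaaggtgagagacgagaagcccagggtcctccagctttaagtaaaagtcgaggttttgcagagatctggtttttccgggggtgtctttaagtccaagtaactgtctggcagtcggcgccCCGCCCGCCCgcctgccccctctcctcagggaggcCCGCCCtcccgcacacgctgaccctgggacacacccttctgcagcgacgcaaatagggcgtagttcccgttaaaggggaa
The capitals in the Tnfrsf9 window are 1 AP-1 motif (TGANTCA), a site of the JUN and FOS family. Those of the Wnt5b window are 2 GC boxes (GGGCGG). The Hoxc4 window holds 1 GC box and 1 CCAAT box (CCAAT), and the Pmp22 window 3 GC boxes, of which 2 overlap, and 1 CCAAT box. Matches on the opposite strand appear as their reverse complement. The Adam19 window held none of the motifs searched.

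The Tnfrsf9 peak was the only unique peak of either list at the gene whose protein defined the other population. Of all genes of 20 to 50 kb, 17.9% held a CD137 peak of any class, and of PDGFRα exonic hosts of that length 21.8%. The Tnfrsf9 peak spanned chr4:150927066-150928090, was 1024 bp wide and carried the ID ENSMUSG00000028965. Its centre lay 7.42 kb inside the 25.95 kb gene (plus strand), at 28.6% of the gene's length from its start. The start it covered, at 150927999, is a RefSeq start of Tnfrsf9 and not the outermost one. Pdgfra, which names the PDGFRα population, and Nr3c1, the glucocorticoid receptor gene, had no unique peak in either list. Tead1, the DNA-binding partner of YAP that the series title names, had no exonic peak, with 1 PDGFRα and 2 CD137 peaks in introns.

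Hoxc4 and Hoxc9, homeobox factors that carry positional identity along the body axis, also had PDGFRα exonic peaks and no CD137 peak of any class. Both genes are shorter than 20 kb. Of all genes that short, 6.76% held a CD137 peak of any class, and of PDGFRα exonic hosts that short 20.7%. The Hoxc4 peak at chr15:103034092-103036205 was 2113 bp wide and lay 90.9% of the way along the 18.8 kb gene. The Hoxc9 peak at chr15:102980558-102982410 was 1852 bp wide in a gene of 7.41 kb. Wnt5b encodes a secreted ligand that acts mainly without beta-catenin. Its exonic peak at chr6:119448471-119449725 was 1254 bp wide, 85.2% of the way along a gene of 112 kb that also held 3 CD137 peaks of other classes. At Adam19, a membrane metalloprotease gene, the peak over a start was 2169 bp wide (chr11:46126896-46129065). A second exonic PDGFRα peak at Adam19 was 1247 bp wide (chr11:46121000-46122247), and a CD137 exonic peak of 1404 bp lay between them (chr11:46122690-46124094).

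PDGFRα exonic peaks covered a RefSeq start less often than CD137 exonic peaks. On the chromosomes with start sites in the table, which leaves out chromosome 18, 54 of 720 PDGFRα peaks covered one (7.50%, Wilson 95% interval 5.79 to 9.66%), against 111 of 996 CD137 peaks (11.1%, 9.34 to 13.3%). The difference for PDGFRα minus CD137 was -3.64 percentage points (Newcombe 95% interval -6.35 to -0.830). With the centre within 1 kb of a start the shares were 8.47% of PDGFRα and 13.5% of CD137 exonic peaks, a difference of -4.98 points (-7.88 to -1.98). These and all later intervals cover counting error only and treat peaks as independent, so they compare 2 libraries and not 2 conditions. Among up5k peaks, which by the name of the class lie upstream of a gene, the shares over a start were 22.5% in the PDGFRα list and 21.4% in the CD137 list, a difference of 1.06 points whose interval includes 0 (-2.51 to 4.71). Intergenic peaks went the other way, with 2.94% of PDGFRα and 1.46% of CD137 peaks over a start, a difference of 1.47 points (0.834 to 2.20). In down5k and intron peaks the intervals of the difference include 0 (-6.03 to 1.60 and -0.292 to 0.605). Whether the exonic difference itself differs from those of the other classes was not tested.

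**Figure D1:**
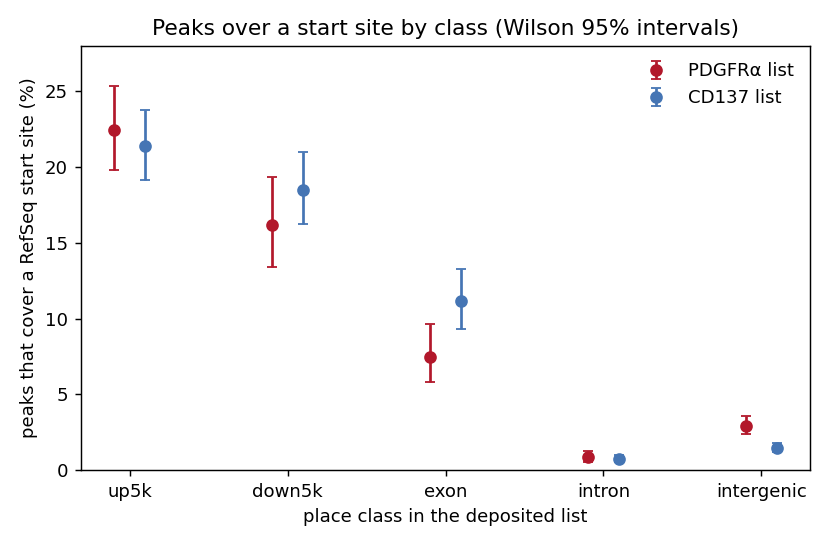
Share of peaks that cover a RefSeq start site (y axis, percent) in each place class of the deposited lists (x axis), with PDGFRα points in red left of CD137 points in blue and Wilson 95% intervals as bars. Among exonic peaks the PDGFRα point is at 7.50% and the CD137 point at 11.1%, the up5k intervals overlap, and among intergenic peaks the PDGFRα point (2.94%) lies above the CD137 point (1.46%).

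The start under a PDGFRα exonic peak was usually one of the host gene's own. This held in 41 of 54 peaks, against 93 of 111 CD137 peaks. The centre lay more than 1 kb from both ends of the host gene in 38 of 54 PDGFRα peaks, against 89 of 111 CD137 peaks, and both held in 29 of 54 and 75 of 111. The difference of the last shares was -13.9 points, with an interval that includes 0 (-29.2 to 1.72). Examples deep inside long genes were Cntn4, a neuronal adhesion protein gene (441 kb from the nearer end), Zfhx3, a zinc finger and homeobox factor gene (247 kb), and Palld, an actin-bundling protein gene (143 kb). By contrast Ndn, the imprinted gene of the growth suppressor necdin, spans only 1.65 kb and had its peak centre 0.232 kb from an end. Only 3 PDGFRα exonic peaks, at Cntn4, Fam171a1 and Pmp22, covered more than 1 start, against 16 CD137 peaks.

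Motif shares were counted in the windows whole under exonic peaks of each list. There were 47 windows whole under PDGFRα exonic peaks, against 114 under CD137 exonic peaks and 32851 in the table. Median G plus C content was 57.0% under PDGFRα peaks (order-statistic 95% interval 51.0 to 61.7%), 53.2% under CD137 peaks (51.3 to 55.3%) and 52.7% over all windows. An AP-1 motif was in 12.8% of PDGFRα windows, 11.4% of CD137 windows and 7.81% of all windows. The TEAD motif (GGAATG) was in 10.6% of PDGFRα windows, 17.5% of CD137 windows and 14.7% of all. One arm of the glucocorticoid receptor motif (AGAACA) was in 12.8%, 24.6% and 19.0%, and the GC box in 46.8%, 37.7% and 35.7%, in the same order. The CCAAT box was in 29.8% of PDGFRα, 20.2% of CD137 and 37.4% of all windows, the TATA box (TATAAA) in 10.6%, 13.2% and 13.6%, and a palindromic EBF motif in 1 PDGFRα window and 1 CD137 window (2.13% and 0.877%, against 0.904% of all). The PDGFRα Wilson intervals overlapped the CD137 ones for each of the 7 motifs. No interval of the difference was made, and windows under the same peak were counted as independent. A match is a run of letters and not evidence of binding.

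Host genes were assigned by position, to the protein-coding gene around the peak's centre or, failing that, the closest gene up to 5 kb away. This placed 707 of 730 PDGFRα exonic peaks (96.8%) at 666 genes (3.04% of all protein-coding genes), and 1009 of 1038 CD137 exonic peaks (97.2%) at 938 genes (4.29%). Of the 23 PDGFRα peaks left, 14 lay at a long noncoding RNA gene, 2 at pseudogenes, 1 at a microRNA gene and 6 at no RefSeq gene within 5 kb. A microRNA hairpin lay under 2 PDGFRα exonic peaks, Mir5114 at the fatty acid desaturase gene Scd2 (chr19:44302821-44304159) and Mir6352 at the ephrin receptor gene Epha4 (chr1:77495920-77497383), and under 3 CD137 peaks. The miRNA genes were named after their positions were seen.

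The hosts of PDGFRα exonic peaks were shorter genes than those of CD137 exonic peaks. Counted per peak, the median host was 60.5 kb long for PDGFRα (interquartile range 30.0 to 129 kb) and 90.4 kb for CD137 (36.6 to 173 kb), while the median of all 21887 protein-coding genes was 17.2 kb. The order-statistic 95% intervals of the medians, 54.3 to 68.0 kb for PDGFRα and 80.3 to 95.8 kb for CD137, did not overlap. The shares differed most between 20 and 50 kb and from 100 kb upward. Genes of 20 to 50 kb held 30.3% of PDGFRα and 19.9% of CD137 exonic peaks, a difference of 10.3 points (6.18 to 14.6), and genes of 100 kb or more held 33.4% and 44.8%, a difference of -11.4 points (-16.0 to -6.73). Below 20 kb the shares were 12.4% of PDGFRα and 12.0% of CD137 exonic peaks, a difference of 0.455 points whose interval includes 0 (-2.64 to 3.68). Intron peaks had longer hosts in both lists, with medians of 159 kb for PDGFRα and 191 kb for CD137, so the PDGFRα hosts were the shorter ones in either class.

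**Figure D2:**
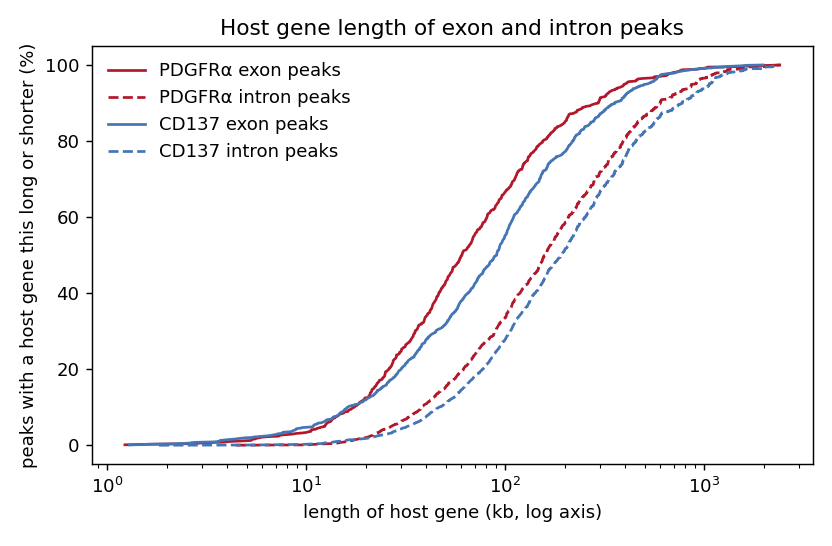
Cumulative share of peaks (y axis, percent) by length of the host gene (x axis, kb, log axis) for PDGFRα (red) and CD137 (blue) exon peaks (solid) and intron peaks (dashed). The solid red line lies left of the solid blue one over most of the range, with medians of 60.5 kb for PDGFRα and 90.4 kb for CD137 exonic peaks.

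A peak inside a gene was more often exonic in the PDGFRα list. Of exon and intron peaks together, 21.4% were exonic in the PDGFRα list (730 of 3418) and 18.5% in the CD137 list (1038 of 5622), a difference of 2.89 points (1.20 to 4.62). In genes of 20 to 50 kb the exon share was 38.7% for PDGFRα and 33.2% for CD137, a difference of 5.53 points (0.00475 to 11.03). In genes of 50 to 100 kb it was 26.4% for PDGFRα and 24.1% for CD137, a difference of 2.35 points whose interval includes 0 (-1.94 to 6.74). In genes of 100 to 300 kb it was 15.2% and 16.0%, and from 300 kb upward 7.80% and 8.19%, with intervals of the difference that include 0 (-3.37 to 1.86 and -2.61 to 2.05). Reweighting the CD137 peaks to the host lengths of the PDGFRα peaks left 1.10 of the 2.89 points, a value without an interval. Against the widest CD137 peaks only, as many as there are PDGFRα peaks, the difference was 1.502 points. Whether the difference varies with host length was not tested. The exon share was lower in each longer class of both lists, starting from 62.4% for PDGFRα and 60.5% for CD137 below 20 kb.

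**Figure D3:**
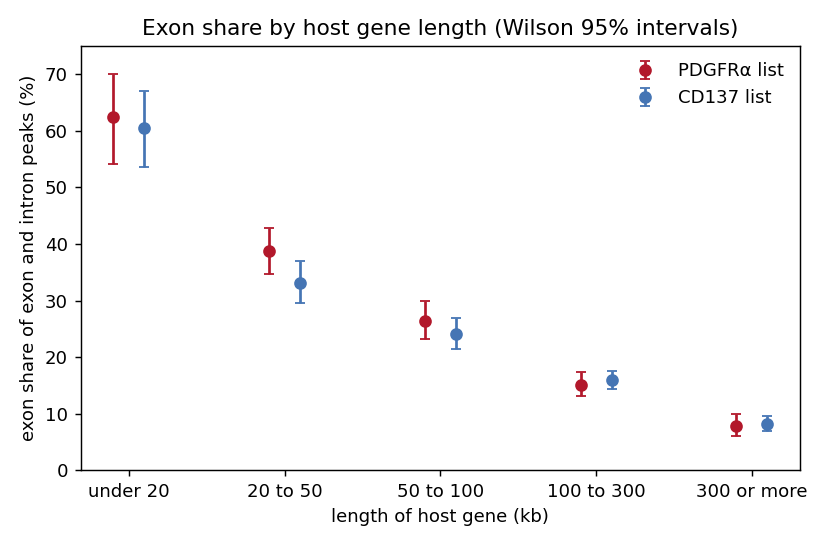
Exonic share of exon and intron peaks (y axis, percent) in 5 classes of host gene length (x axis, kb), with PDGFRα points in red left of CD137 points in blue and Wilson 95% intervals as bars. The PDGFRα point is 5.53 points above the CD137 point at 20 to 50 kb, and the points lie close together from 100 kb upward.

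Few exonic peaks had their centre within 1 kb of an outer end of the host. The rule that separates exon from up5k and down5k peaks is not given, and its bearing on these distances was not tested. The centre of a PDGFRα exonic peak was 11.3 kb from the nearer gene end at the median (interquartile range 4.90 to 25.2 kb), against 15.4 kb for CD137 (4.81 to 36.0 kb). Intron peaks, with their longer hosts, lay farther in, at medians of 33.9 kb for PDGFRα and 41.8 kb for CD137. Only 31 of 707 PDGFRα peaks (4.38%) had their centre within 1 kb of a gene end, against 67 of 1009 CD137 peaks (6.64%), a difference of -2.26 points (-4.39 to -0.0111). Within 500 bp the difference was -0.143 points (-1.45 to 1.31). Within 10 kb the order was reversed, with 45.8% of PDGFRα and 39.2% of CD137 peaks, a difference of 6.58 points (1.83 to 11.3), beside the shorter PDGFRα hosts. As a share of the host's length the distances had medians of 24.2% for PDGFRα and 23.6% for CD137, with overlapping intervals (22.2 to 25.7% and 21.8 to 25.4%). The PDGFRα peaks farthest from any gene end were in Lrp1b, a lipoprotein receptor family gene (701 kb), Lrmda (458 kb), Cntn4 (441 kb), the dystrophin gene Dmd (433 kb) and Nav2 (306 kb).

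PDGFRα exonic peaks leaned toward the downstream part of their hosts, and CD137 exonic peaks did so to much the same degree. Strand was known for the hosts of 563 PDGFRα and 775 CD137 exonic peaks. The median position was 62.4% of the gene's length from its start for PDGFRα (order-statistic 95% interval 57.4 to 66.4%) and 62.7% for CD137 (59.1 to 65.3%). Past the midpoint lay 62.5% of PDGFRα and 63.0% of CD137 exonic peaks, a difference of -0.446 points (-5.70 to 4.77). PDGFRα intron peaks were spread more evenly, with 46.9% past the midpoint, so that PDGFRα exonic minus PDGFRα intron peaks gave 15.7 points (11.04 to 20.1). The first 10% of the gene held 6.39% of PDGFRα and 8.65% of CD137 exonic peaks, and the last 10% of it 14.4% and 16.9%, with intervals of both differences that include 0 (-5.05 to 0.682 and -6.38 to 1.48).

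**Figure D4:**
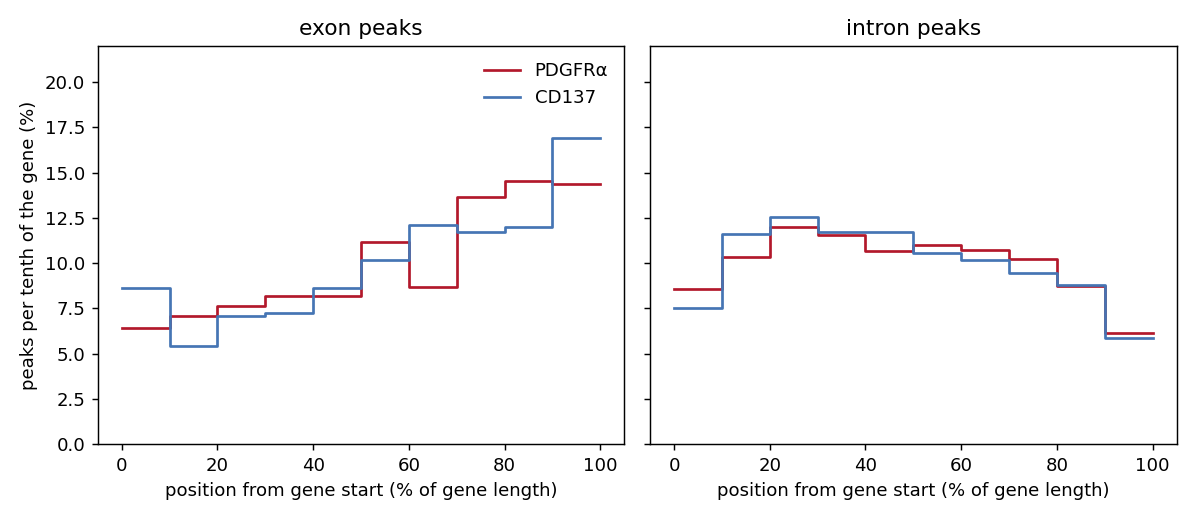
Share of peaks (y axis, percent) in each 10% step along the host gene from its start (x axis, percent of gene length), for exon peaks on the left and intron peaks on the right, with PDGFRα in red and CD137 in blue. Exonic peaks of both lists are more frequent past the midpoint (62.5% of PDGFRα and 63.0% of CD137), and intron peaks are not.

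Exonic peaks were about as wide in the PDGFRα list as in the CD137 list. The median width was 1289 bp for PDGFRα (interquartile range 1089 to 1534 bp, order-statistic 95% interval of the median 1264 to 1320 bp) and 1278 bp for CD137 (1075 to 1491 bp, 1248 to 1299 bp). The difference of the medians was 11 bp, and the interval bounds allow -35 to 72 bp. At 2 kb or more were 58 PDGFRα exonic peaks (7.95%) and 74 CD137 exonic peaks (7.13%), a difference of 0.816 points (-1.64 to 3.42). Within the PDGFRα list the exonic peaks stood between the up5k peaks (1330 bp) and the down5k (1249 bp), intron (1234.5 bp) and intergenic peaks (1192 bp) in median width. The share at 2 kb or more was 11.6% of PDGFRα up5k peaks and 4.13% of PDGFRα intron peaks. PDGFRα exonic peaks over a start had a median of 1397 bp, against 1286 bp for those away from starts, with overlapping intervals (1185 to 1572 bp and 1262 to 1312 bp).

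**Figure D5:**
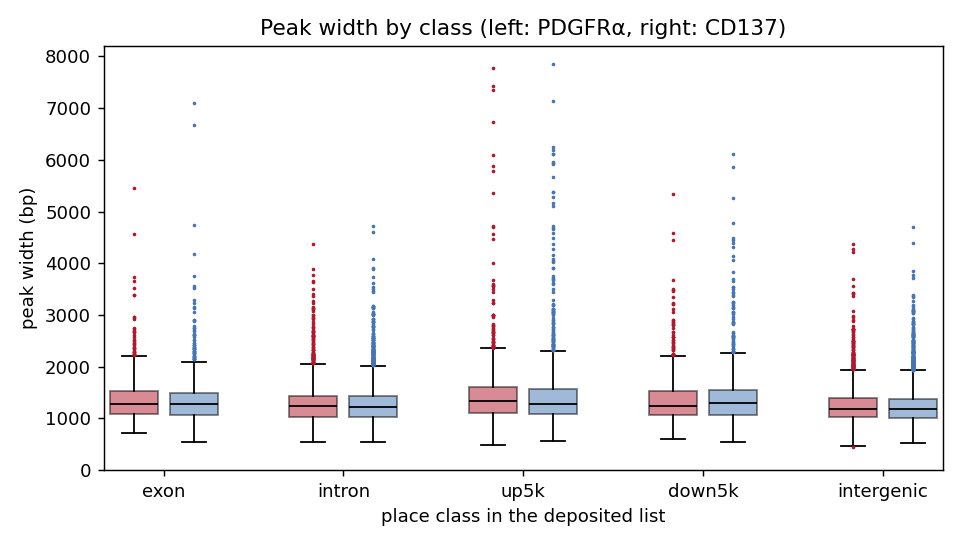
Peak width (y axis, bp) by place class (x axis), with the PDGFRα box in red left of the CD137 box in blue. Boxes span the interquartile range with the median as a line, whiskers reach the farthest peak within 1.5 times that range and dots are peaks beyond them. The exon medians are 1289 bp for PDGFRα and 1278 bp for CD137.

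The widest PDGFRα exonic peaks lay in genes of varied function. Slc6a17, a transporter of neutral amino acids into synaptic vesicles, had the widest, at 5453 bp (chr3:107476665-107482118). Pmp22, a myelin membrane protein gene, followed with 4566 bp at chr11:63129397-63133963, over 3 starts of the gene. Sh3pxd2a, a scaffold of podosomes, had a peak of 3733 bp and the RNA-binding protein gene Rbpms one of 3654 bp. Peaks of 2921 to 3520 bp lay at Dbn1 (the actin-binding protein drebrin), Hk2 (a hexokinase of insulin-responsive tissues), Lrsam1 (a ubiquitin ligase), Ddc (aromatic amino acid decarboxylase), Scrt1 (a Snail-related repressor) and Tbce (a tubulin-folding cofactor). No CD137 exonic peak lay at Slc6a17, Pmp22, Sh3pxd2a, Rbpms, Dbn1, Hk2, Lrsam1, Scrt1 or Tbce, while Ddc had 1. Of all PDGFRα exonic hosts 11.4% held a CD137 exonic peak, and of all protein-coding genes 4.29%. CD137 peaks of other classes lay at Slc6a17, Sh3pxd2a, Rbpms, Hk2, Scrt1 and Tbce. The 5 widest CD137 exonic peaks lay at Sgk1, a glucocorticoid-induced kinase gene (7102 bp), Dlc1 (6673 bp), Arid5b (4731 bp), Tns1 (4177 bp) and Cyth3 (3761 bp), and those at Sgk1 and Dlc1 exceeded every PDGFRα exonic peak. The narrowest PDGFRα exonic peaks, of 711 to 763 bp, lay at Rgs7bp, Nek6, Cacnb2, Kcnmb2 and Fndc1.

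Few genes held more than 1 PDGFRα exonic peak. There were 37 genes with 2 and 2 genes with 3, against 63 with 2 and 4 with 3 in the CD137 list. Nav2, a cytoskeletal protein of the neuron navigator family, had 3 exonic and 9 PDGFRα peaks in all over 651 kb, against 0 exonic and 1 CD137 peak in all. Nol4l had 3 exonic and 4 PDGFRα peaks in all, against 1 CD137 peak. Among genes with 2 PDGFRα exonic peaks, Fhad1, Gabbr1 (a subunit of the GABA-B receptor), Tbc1d9b and Prdm11 had no CD137 peak of any class. Sh3pxd2a had 1 CD137 peak, none exonic, and Adam19, Plekhm3 and Ston2 (an endocytic adaptor) had 1 CD137 exonic peak each.

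Some genes held exonic peaks of both populations. There were 76 genes with an exonic peak in each list, 0.347% of all protein-coding genes. These were 11.4% of PDGFRα hosts, while 4.29% of all protein-coding genes held a CD137 exonic peak. They were 8.10% of CD137 hosts, while 3.04% of all protein-coding genes held a PDGFRα exonic peak. The shares over all genes were not matched for gene length. A CD137 peak of any class lay at 308 PDGFRα exonic hosts (46.2%), which left 358 (53.8%) with PDGFRα peaks only. Having no CD137 peak was thus the more common case among these hosts. Over all protein-coding genes 19.7% held a CD137 peak of any class, and that share was higher in longer genes. Among genes of 50 to 100 kb it was 46.2% for PDGFRα exonic hosts and 36.8% for all genes, and among genes of 100 to 300 kb 75.5% and 64.0%. In 74 of the 76 genes, leaving out clone names, the nearest PDGFRα and CD137 exonic peaks were 1.62 to 303 kb apart from centre to centre, with a median of 22.1 kb. They stood closest in Ppp1r12b, a regulatory subunit of myosin phosphatase, where the PDGFRα peak at chr1:134772456-134774187 began 35 bp past the CD137 peak at chr1:134770978-134772421. Adam19 (1769 bp from centre to centre), Arhgap24 (2086 bp), the axon degeneration gene Sarm1 (2359 bp), Dlg3 (2471 bp) and Vps13d (2978 bp) came next.

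A PDGFRα exonic peak seldom had another PDGFRα peak within 5 kb. Within 5 kb of its centre, 10 of 730 (1.37%) had one, while 64 (8.77%) had a CD137 peak there. Within 10 kb the shares were 10.7% for the same list and 15.9% for the CD137 list, and within 50 kb they were 44.7% and 52.9%. The lists differ in length, with 8002 PDGFRα and 14483 CD137 peaks, which limits what these shares compare. For CD137 exonic peaks, 3.18% had a CD137 neighbour and 6.17% a PDGFRα neighbour within 5 kb.

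Over all 17 gene lists, 31 of 592 genes had a PDGFRα exonic peak (5.24%, against 3.04% of all protein-coding genes) and 47 a CD137 exonic peak (7.94%, against 4.29%), and 4 had both. Among 30 adipocyte genes 3 had a PDGFRα exonic peak and 1 a CD137 exonic peak. The PDGFRα members were Plin1, the coat protein of lipid droplets (790 bp, chr7:79729137-79729927), Mlxipl, a glucose-responsive activator of lipogenesis (1156 bp, chr5:135133911-135135067), and Acaca, which makes malonyl-CoA for fatty acid synthesis (1117 bp, chr11:84290131-84291248). Plin1 and Mlxipl had no CD137 peak of any class, and Acaca had 1. All 3 peaks were narrower than the median PDGFRα exonic peak. The CD137 member was Pparg, the main regulator of fat cell formation. With peaks of any class the counts of adipocyte genes were 10 for PDGFRα and 7 for CD137. Over all protein-coding genes 19.7% held a CD137 peak of any class. That share was not counted for PDGFRα, which limits what the any-class counts here and below can compare. Of the 7 defining adipocyte markers, 1 had a PDGFRα exonic peak (Plin1) and 1 a CD137 exonic peak (Pparg). Over peaks of any class these markers went the other way, with 1 for PDGFRα (Plin1) and 3 for CD137 (Fabp4, Lep and Pparg).

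PDGFRα exonic peaks lay at 3.70% of thermogenic, 5.26% of white fat and 0% of glucocorticoid genes, against 3.04% of all protein-coding genes. Tnfrsf9 was the only one of 27 thermogenic genes with a PDGFRα exonic peak, against 3 with a CD137 exonic peak. Hoxc9 was the only one of 19 white fat regulators, against 0 in the CD137 list. None of 29 glucocorticoid response genes had a PDGFRα exonic peak, whereas the CD137 list had 3, Sgk1, the chaperone gene Fkbp5 and the clock gene Per2. With peaks of any class the counts of glucocorticoid genes were 10 for PDGFRα and 9 for CD137. Those of thermogenic genes were 6 and 11, and those of white fat regulators 9 and 4, in the same order. With 3.04% of genes called, a list of 29 has room for few members, and the counts in this and the next paragraphs are descriptions of 2 libraries without a test.

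Genes of the matrix list and of the list of matrix proteases and inhibitors had PDGFRα exonic peaks at 5 of 65 and 4 of 40 members, against 7 and 5 in the CD137 list. The median gene length was 60.1 kb for the matrix and 28.7 kb for the protease list, against 17.2 kb for all genes. Col5a3, a fibrillar collagen chain gene, had 2 exonic PDGFRα peaks of 833 and 1163 bp and no CD137 peak, as had the laminin gene Lamb1 and the latent TGF-beta binding protein gene Ltbp4 with 1 exonic PDGFRα peak each. Col13a1 was the fifth matrix gene, and Col27a1 had 1 PDGFRα and 2 CD137 exonic peaks. The members of the protease list were Adam19, Adamts20, Adamts9 and Adamtsl1, the last an ADAMTS-like protein without a protease domain, and Adam19 and Adamtsl1 also had 1 CD137 exonic peak each. Adamts9, which cleaves versican, had 4 PDGFRα peaks in all and no CD137 peak.

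PDGFRα exonic peaks lay at 6.38% of TGF-beta and BMP, 6.06% of Hippo and 1.72% of Wnt genes, against 3.04% of all genes. For CD137 exonic peaks the shares were 8.51%, 12.1% and 6.90%, against 4.29% of all genes. The TGF-beta and BMP list had 3 of 47 members with a PDGFRα exonic peak, the signal transducers Smad1 (1774 bp) and Smad3 (2199 bp) and the receptor gene Bmpr1b (1001 bp), against 4 in the CD137 list. Bmpr1b had an exonic peak in each list, 75.3 kb apart. The Hippo list had 2 of 33, Ajuba (1438 bp) and Limd1 (1387 bp), LIM proteins that bind LATS kinases, neither with a CD137 peak. The CD137 list had 4 other Hippo members, the atypical cadherins Fat1 and Fat4, the FERM protein Frmd6 and the TEAD cofactor Vgll3. Wnt5b was the only one of 58 Wnt genes, against 4 in the CD137 list.

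Among transcription factor families, Hoxc4 and Hoxc9 were 2 of 74 homeobox genes (2.70%), against 4 with a CD137 exonic peak. Over all protein-coding genes the exonic shares were 3.04% for PDGFRα and 4.29% for CD137. With peaks of any class the counts of homeobox genes were 15 for PDGFRα and 27 for CD137. Foxk1, with 2 PDGFRα exonic peaks, and Foxn3 were 2 of 46 forkhead, SOX and T-box genes, against 3 in the CD137 list. Ppara, a nuclear receptor that drives fatty acid oxidation, was the only one of 48 GATA, bHLH and nuclear receptor genes, against 5 in the CD137 list, while peaks of any class lay at 16 of them for PDGFRα and 14 for CD137. The Ppara peak was 1424 bp wide and was the only unique peak of either list there.

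Markers of other cell types were also among the hosts, beside the adipocyte and matrix genes above. The counts stand beside 3.04% of all protein-coding genes with a PDGFRα and 4.29% with a CD137 exonic peak. Median gene length was 43.0 kb in the endothelial and 27.0 kb in the mesothelial list, against 17.2 kb for all genes. Of 18 endothelial genes 3 had a PDGFRα exonic peak and 0 a CD137 exonic peak. The 3 were Kdr (1532 bp) and Flt4 (2130 bp), receptors for vascular endothelial growth factors, and Vwf (1399 bp), a clotting protein of endothelium. Of 15 mesothelial genes 3 had one, Krt7, Lrrn4 and Upk1b, against 0 in the CD137 list. Over peaks of every class the counts lay closer, with 6 PDGFRα and 4 CD137 endothelial genes and 6 PDGFRα and 5 CD137 mesothelial genes. Of the 6 defining endothelial markers 2 had a PDGFRα exonic peak (Kdr and Vwf), and of the 6 mesothelial ones 1 (Lrrn4), against 0 for CD137 in each. With peaks of any class these markers gave 3 PDGFRα and 2 CD137 endothelial genes and 2 PDGFRα and 1 CD137 mesothelial gene. Laptm5 was the only one of 24 immune genes, against 2 CD137 members. None of 28 stromal progenitor genes and none of 22 early embryo genes had a PDGFRα exonic peak, against 3 CD137 members each. Of the 10 defining stromal markers, 0 had an exonic peak in either list, and 3 had a PDGFRα peak of any class (Dcn, Ly6a and Prrx1), against 3 with a CD137 peak (Cd34, Dpp4 and Thy1). Lists of unshared peaks leave out what both populations have open, so they are no check of the labelled cell type. The part of other cells in these counts was not tested.

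By symbol families, which were chosen after earlier results were seen, solute carriers had 25 of 375 members with a PDGFRα exonic peak (6.67%) and 23 with a CD137 exonic peak (6.13%), although the CD137 list is longer. Collagen chains had 7 of 44 in each list. Plexins and semaphorins had 2 of 29 with a PDGFRα and 7 with a CD137 exonic peak. No PDGFRα exonic peak lay at any of 1110 olfactory receptor genes, 97 ribosomal protein genes or 97 cadherins and protocadherins, against 0, 0 and 2 for CD137. The median gene length of these 3 families was 0.95, 3.35 and 90.3 kb, and the bearing of length on these counts was not tested. Over all protein-coding genes, 3.04% held a PDGFRα and 4.29% a CD137 exonic peak.

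By chromosome, exonic peaks made up a larger share of the PDGFRα than of the CD137 list on 16 of 20 chromosomes. The widest gap upward was on chromosome 19, with 28 of 218 PDGFRα peaks (12.8%) and 23 of 381 CD137 peaks (6.04%), a difference of 6.81 points (2.05 to 12.3). Chromosome 18 went the other way, with 10 of 273 PDGFRα peaks (3.66%) and 42 of 563 CD137 peaks (7.46%), a difference of -3.80 points (-6.77 to -0.294). It was the only one with an interval below 0, and 8 chromosomes had an interval above 0. Both were picked out after the values were seen.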

How the data were processed

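ATAC-seq was analysed from 2 libraries, 1 per group. Per the file headers, each deposited list gives a chromosome, start, end, Ensembl gene ID and place class for every peak; these positions are the only numbers, and width is end minus start. The submitters' processing notes name CASAVA 1.8 and mm10 but give neither a role. The aligner, peak caller, threshold, any transposase shift, the rule for a unique peak, the exon annotation and whether starts count from 0 or 1: all not given in the sources used here, so a deeper library or another threshold could change either list.

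Host genes came from a RefSeq table (GRCm38.p6) of 21887 protein-coding genes. Starts and strand came from a RefSeq table of 32851 start windows, which holds 17492 of these genes (79.9%) and none on chromosome 18. An Ensembl ID took the symbol of the gene that held 80% or more of its peaks. Shares carry Wilson intervals, differences Newcombe intervals and medians exact binomial order-statistic intervals, all at 95%. With 1 library per group no p-value is given. Simulated data were used to test the assignment of centres to genes and the coverage of the Newcombe and median intervals, and no other step. Members and gene lists were chosen with earlier results of these data known. Named genes are the study's genes, those with most peaks, the widest, narrowest and deepest peaks, up to 4 per list, the closest pairs and the 5 widest CD137 peaks, without clone names. Other genes, such as starts deep in long genes, were picked after their values were seen. Tables were made with Python 3.11.15 (pandas 2.3.3, numpy 2.4.6), intervals with scipy 1.17.1 and plots with matplotlib 3.10.9.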

Additional observations from a re-analysis of the deposited data

How the results depend on the processing

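No paired analysis was possible because neither group has a second library, and none could be left out. The differences in exon share over all genes, host length and gene starts kept their direction in each alternative listed for them. The gene end difference was -0.143 points within 500 bp, -0.398 points for peaks over a gene end, 0.0313 points within 5 kb and 6.58 points within 10 kb, so its direction depends on the distance chosen. Reweighted to PDGFRα host lengths, the exon share difference was 1.10 points in place of 2.89, and against the widest CD137 peaks 1.502 points. Against only the widest CD137 exonic peaks the width difference was -104.5 bp, by construction. Of PDGFRα exonic hosts, 46.2% had a CD137 peak of any class and 2.10% a CD137 exonic peak within 5 kb, in place of 11.4%. Neighbour shares were 1.37% (5 kb) and 44.7% (50 kb) for the same list and 8.77% and 52.9% for the CD137 list. Peaks at or above the median exonic width left 19 of 31 listed genes, with no adipocyte, thermogenic (Tnfrsf9) or Wnt (Wnt5b) gene and 2 each of the matrix and protease lists. The chromosome 18, reweighting, start-cover and some width settings were added after the data were seen. Depth is unknown and was not equalised.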
